A study of Mus musculus with 12 samples.

Results

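The regions described here are the rows of a table of FMRP RNA immunoprecipitation (RIP) fold enrichments that belong to genes listed 10 or more times. They were chosen by counting how often each gene identifier occurs, with rows that repeat all 6 values within a gene counted once; 0 such repeats were found. The rule kept 871 of 14447 rows (6.03%) and 63 of 7525 genes (0.837%). Of the other genes, 3111 had 2 to 9 rows and 4351 had 1 row. Because the number of rows comes from the measurement itself, the number of rows and the height of the ratios chose these genes and are given as a description.

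Whole ovaries were taken from mouse fetuses at stage E16.5, from Fmr1 knockout (KO) fetuses and wild-type (WT) littermates, with 5 pairs of ovaries pooled per sample. The strain given for all samples, WT included, is B6.129P2-Fmr1tm1Cgr/J, in which the Fmr1 allele is disrupted in all cells; no label says if KO fetuses were homozygous or heterozygous. Each genotype gave 3 input RNA libraries and 3 libraries of RNA recovered with the anti-FMRP antibody ab17722. The samples are labelled as biological replicates 1 to 3. Whole ovaries hold oocytes and somatic cells, and the files identify genes by Ensembl identifier without symbols, so the labelled tissue was not checked against marker genes here and, except for Fmr1, the study's target, genes are given by identifier or position.

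FMRP, the product of Fmr1, is an RNA-binding protein that associates with many messenger RNAs, often along their coding sequence, and is best known as a repressor of their translation. Its loss causes fragile X syndrome, and repeat expansions of moderate length in the human gene are linked to early loss of ovarian function. In RIP, an antibody recovers the protein with its bound RNA, and the recovered RNA is compared with a reference to give an enrichment. An RNA recovered equally well from tissue without the protein cannot be assigned to that protein, which is the question that the KO libraries address.

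In the input, Fmr1 RNA was at 101 ± 19.8 CPM (reads scaled to a common library total) in KO and 213 ± 8.47 CPM in WT ovaries (SD, n = 3 each), a log2 difference of -1.08 (SE 0.11, edgeR adjusted p = 0.00775). Fmr1 had a single RIP row, with a mean ratio of 0.422 in KO and 1.39 in WT libraries. Its mean over all RIP libraries was under 1, so the main limma tests below, which required at least 1, left it out. The input libraries held between 18880238 and 25707718 counted reads. The RIP table gives ratios without read counts, so the depth behind each ratio is unknown, and the reference of the ratio and the position of a row within its gene were not given. Across the 6 RIP libraries the median ratio over the 871 rows lay between 2.31 and 2.43.

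The number of rows per gene had a long upper tail with few genes in it. Exactly 10 rows were found for 17 genes, 11 rows for 15 genes and 12 rows for 9 genes, and 11 genes had 15 or more. The gene with the most rows, ENSMUSG00000092329, had 54. It was followed by ENSMUSG00000028763 with 32 rows, ENSMUSG00000025261 and ENSMUSG00000040249 with 28 rows each, ENSMUSG00000026193 with 27, ENSMUSG00000018707 with 25, ENSMUSG00000023830 with 21, ENSMUSG00000002900 with 17 and ENSMUSG00000026837 with 16. The 63 genes lay on 18 chromosomes, with 9 on chromosome 1 and 7 each on chromosomes 2 and 11.

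The 54 rows of ENSMUSG00000092329 were mostly not its own. Its gene model, on the plus strand of chromosome 8 from 120637580 to 125072461 in the coordinates of the count files, spans 4434882 bp and overlaps 209 other annotated genes, while its exons add up to 3953 bp. Of its 54 rows, 52 carried the same 6 values as a row of another gene, and 33 other genes were involved. All of its exonic bases (100%) are also exonic in another gene, and its input count was 0 in all 6 libraries. The counting program by default leaves out reads that fall on several genes and the headers show no option against it, so that 0 sets no limit on its RNA.

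A second such pair lay on chromosome 2. ENSMUSG00000101645 (84431783 to 84508385, minus strand, 12 rows) and ENSMUSG00000034101 (84430415 to 84481109, minus strand, 10 rows) shared 10 rows. The former also had an input count of 0 in all 6 libraries and 100% of its exonic bases in other genes, and the latter had 43.3 CPM. Of the exonic bases of the latter, 61.2% are also exonic in another gene, so reads that fall on several genes may be missing from its CPM. Over all 63 genes, 97 of the 871 rows were also listed under another gene, 861 sets of values were distinct, and 45 genes shared no row. In the whole table, 2622 of the 2626 gene pairs that shared a row overlapped in span (99.8%) and 2121 (80.8%) overlapped in exons. The remaining 60 genes had more than 2 rows of their own and are the ones used below where rows of a gene are compared with each other.

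The genes with the next most rows, which had mostly rows of their own, were long, many-exon genes with high input. ENSMUSG00000028763 (chromosome 4, 137196080 to 137297941, plus strand) has 14739 bp of exons in 101 merged exons, and its input was at 877 CPM. ENSMUSG00000025261 (chromosome X, 150583803 to 150718413, plus strand) has the longest exonic length of the 63, at 23507 bp, and an input of 757 CPM. ENSMUSG00000040249 (chromosome 10, 127374030 to 127457017, minus strand) has 17717 bp and 1546 CPM. ENSMUSG00000026193 (chromosome 1, 71624679 to 71692359, minus strand) has 11685 bp and 700.1 CPM.

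Many-row genes were longer and more abundant in the input than the other genes of the table. Their median exonic length was 9801 bp (range 2548 to 23507), against 4902 bp for genes with 2 to 9 rows and 3084 bp for genes with 1 row. Their median span was 76071 bp, against 26076 and 13996 bp, and their median number of merged exons 35, against 11 and 6. Their median input was 408 CPM (range 0 to 5912), against 69.9 and 26.9 CPM. Per kilobase of exon the medians of the input were 38.7, 12.6 and 8.02 CPM. The number of rows per kilobase of exon had medians of 1.31, 0.563 and 0.324, but it contains the row count that chose these genes. In the 25 genes with 9 rows its median was 1.21.

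**Figure D1:**
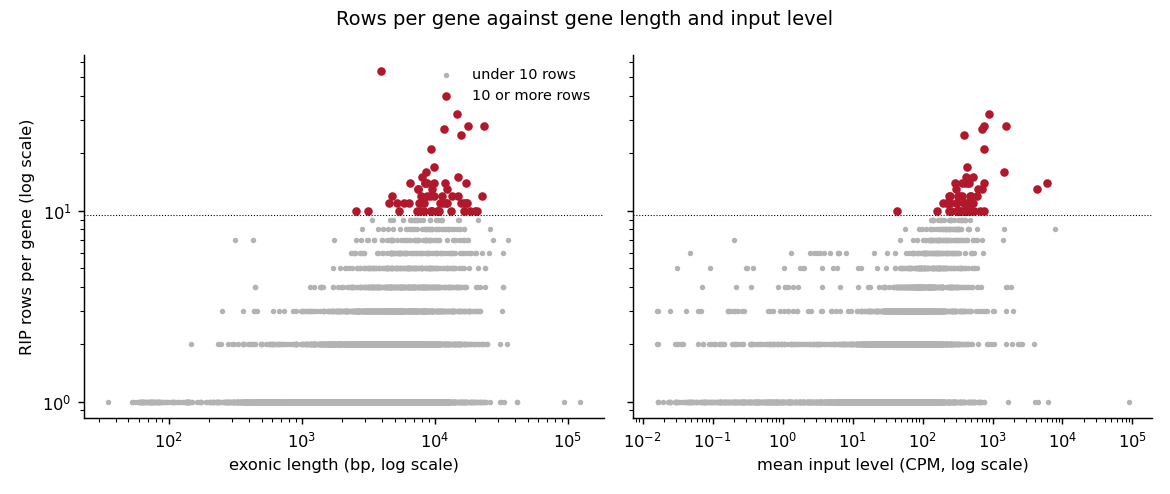
Number of RIP rows per gene (log scale) against exonic length in bp and against input level in CPM (both log scale), one point per gene, with the 63 genes of 10 or more rows in red and genes under 10 rows in grey. The red points lie to the right in both panels, with medians of 9801 bp and 408 CPM; genes at or near 0 CPM, among them the gene with 54 rows, are not drawn in the panel of input level.

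Over all 7525 genes of the table the number of rows had a Spearman correlation of 0.434 with input CPM, 0.337 with exonic length, 0.267 with span and 0.250 with input per kilobase. These describe genes measured in the same libraries and are not tested. A gene that was both long and abundant did not always have many rows. Of 107 annotated genes at or above the lower quartiles of the 61 many-row genes with counted input (8019 bp and 310 CPM), 36 (33.6%) had 10 or more rows, 65 had 1 to 9 and 6 had none. Of the 6120 RIP genes under both quartiles, 7 had 10 or more rows. Among these were ENSMUSG00000092329, ENSMUSG00000101645 and ENSMUSG00000034101, whose rows were mostly or all shared with other genes.

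The threshold of 10 rows cut through a continuous range. The 25 genes with 9 rows had a median exonic length of 7410 bp and a median input of 250 CPM, and the 17 genes with 10 rows had 9457 bp and 336 CPM. The median ratio of their rows was 2.31 and 2.44, respectively. The median of their highest row was 3.64 and 5.65.

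The row ratios, each averaged over the 6 libraries, ranged from 0.996 to 84.1 with a median of 2.41, and the median over the whole table was 1.77. The ratio was above 1 in all 6 libraries in 840 of the 871 rows (96.4%), and in 86.9% of all rows of the table. It was above 2 in all 6 libraries in 373 rows (42.8%, against 15.8% of all rows), and above 4 in 106 rows (12.2%, against 2.87%). Enrichment above 1 was thus present in the KO as well as the WT libraries for nearly all of these rows.

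Within a gene, rows differed widely in their ratio. The SD of log2(ratio + 1) over the rows of a gene had a median of 0.442 and ranged from 0.031 to 1.24. For genes with 2 to 9 rows the median was 0.198, and for the 70 genes with 8 or 9 rows it was 0.359. A row with a mean ratio above 10 was present in 20 of the 63 genes, and in 9 genes the highest row was more than 5 times the gene's median row. Counted by rows, 38 of the 871 were above 10, against 313 of the 14447 rows of the whole table. The median over genes of the highest row over the median row was 2.44, and 1.66 in the genes with 8 or 9 rows.

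**Figure D2:**
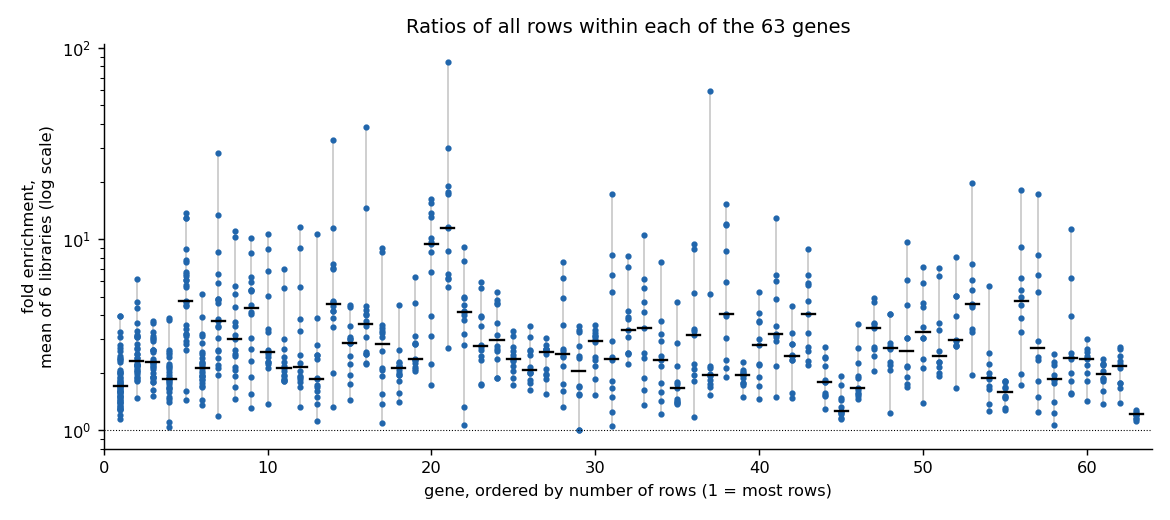
Fold enrichment of every row (mean of 6 libraries, log scale) in each of the 63 genes, ordered from the most to the fewest rows, with black ticks at the gene's median and grey lines from its lowest to its highest row. Most points lie between 1 and 4 (median 2.41), single rows stand far above the rest of their gene, and the highest reaches 84.1.

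The widest spread was in ENSMUSG00000024393 (chromosome 17, 35368052 to 35383873, minus strand, 11 rows), with an SD of 1.24. Its median row was at 1.95 and its highest at 59.8, a factor of 30.6. The highest row measured 25.8, 78.2 and 76.0 in KO and 133, 28.2 and 17.4 in WT replicates. That row was high in every library but uneven, and the genotypes overlapped. The next row of this gene was at 5.15.

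ENSMUSG00000029661 (chromosome 6, 4504814 to 4541544, plus strand, 13 rows, SD 1.14) had the highest row of all many-row genes, at 84.1, and a median row of 11.5. The highest row measured 143, 105 and 79.8 in KO and 86.7, 44.5 and 46.0 in WT libraries. The KO values were mostly the higher ones, but the lowest KO value lay below the highest WT value. Its input, at 4322 CPM, was the second highest of the 63 genes. ENSMUSG00000026043 (chromosome 1, 45350698 to 45388866, plus strand, 14 rows, SD 0.92) had the highest input, 5912 CPM. Its highest row, at 33.0, was even across libraries, with 32.6, 36.8 and 29.9 in KO and 37.8, 29.9 and 31.0 in WT.

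High rows were not always even. In ENSMUSG00000023830 (chromosome 17, 12901293 to 12988551, minus strand, 21 rows) the highest row measured 2.99, 45.7 and 3.24 in KO and 68.6, 23.3 and 25.5 in WT libraries. One KO library was as high as the WT libraries there. In ENSMUSG00000040488 (chromosome 7, 27004561 to 27037117, minus strand, 14 rows) the highest row measured 2.98, 139 and 48.3 in KO and 30.8, 7.98 and 2.95 in WT libraries, and the genotypes overlapped.

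At the other end, ENSMUSG00000069833 (chromosome 19, 8966648 to 9054278, plus strand, 19938 bp of exons in 10 merged exons) had 10 rows between 1.12 and 1.27, with an SD of 0.031. The next smallest SDs were 0.105, 0.112, 0.137 and 0.152, in genes on chromosome 11 (120696672 to 120715373), chromosome X (73267067 to 73293426), chromosome 3 (38941089 to 39066134) and chromosome 14 (52435608 to 52495237). Their highest rows stayed between 1.80 and 2.35. These genes had long exonic sequence, 9457 to 19938 bp.

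Over the 60 genes with rows of their own, the spread within a gene had a Spearman correlation of 0.698 with input per kilobase and -0.557 with exonic length. The median row ratio had correlations of 0.534 and -0.489 with the same measures. The number of rows correlated with input CPM at 0.428 and with exonic length at 0.119. All points share the same 6 libraries, so these values describe the genes and are given without a test. Exonic length is the divisor of input per kilobase, so these measures are not independent of each other. With input CPM itself, the spread within a gene correlated at 0.290. Shorter genes with more input per kilobase tended to have the higher and more uneven ratios.

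Which rows of a gene were high was alike in both genotypes. The Spearman correlation between the KO mean and the WT mean over the rows of a gene had a median of 0.886, and it exceeded 0.7 in 58 of the 63 genes. The lowest value, -0.418, belonged to ENSMUSG00000069833, whose rows hardly differ. Between single libraries, the median correlation over genes lay between 0.670 and 0.798 for the 6 pairs within a genotype and between 0.736 and 0.797 for the 9 pairs between genotypes. Both ranges overlapped.

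Differences between WT and KO were taken on log2(ratio + 1) with each library centred on its median, and WT minus KO is given throughout. Of the 871 rows, 435 (49.9%) were higher in WT and 436 in KO, and 49.4% of all rows of the table were higher in WT. No row passed an adjusted p of 0.05 in limma, among 869 rows tested here (2 had a mean ratio under 1) or among all 14365 rows tested (0% called). At an unadjusted p under 0.05, 45 rows (5.18%) were higher in WT, against a background of 5.97% of all rows. In the other direction 18 rows (2.07%) were higher in KO, against 2.88%. Both shares lay under the background with every library in use. Without WT replicate 1, 50 of 869 rows were higher in WT at this threshold, against 786 of 14316 in the whole table. That share was no longer under the background. With single libraries left out, the percent of rows higher in WT, without a threshold, lay between 46.5% and 55.1%.

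The share of a gene's rows that were higher in WT ran from 0% to 100%, with quartiles of 31.7%, 50% and 70%; in the 70 genes with 8 or 9 rows the quartiles were 33.3%, 50% and 71.9%. In 4 of the 63 genes every row was higher in WT, in 1 gene no row was, 10 genes had 80% or more of their rows higher in WT, 9 had 20% or fewer, and 44 lay in between. Of the 45 rows higher in WT at the unadjusted threshold, 24 belonged to 3 genes. Such rows were found in 16 genes and rows higher in KO in 12 genes, and 0 genes held both kinds. No background was counted for these numbers of genes, and the shares of rows behind them lay under the background with every library in use. The mean difference of a gene was positive in 35 and negative in 28 genes, ranging from -0.29 to 0.49 with a median of 0.02.

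**Figure D3:**
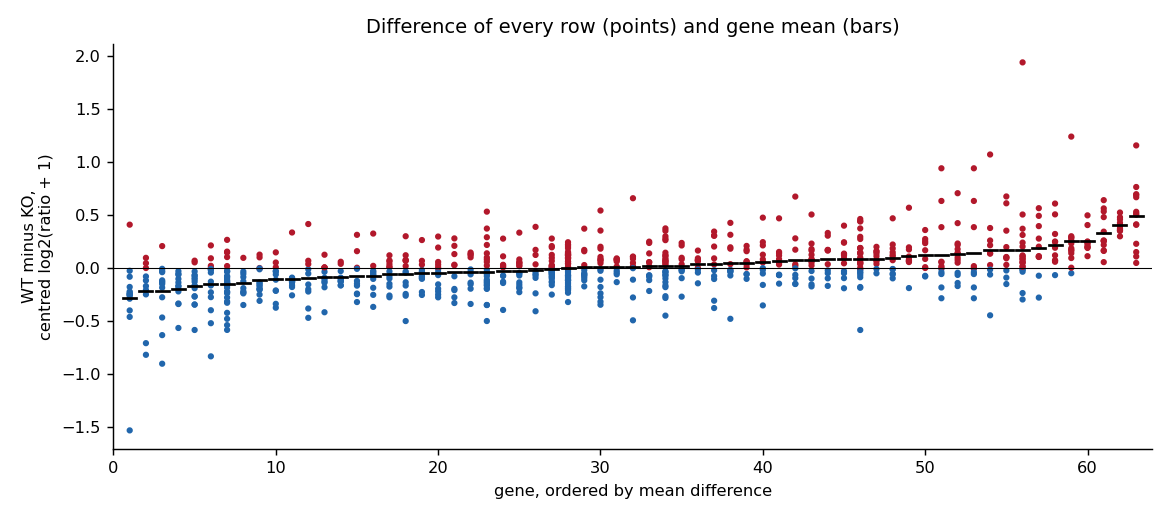
WT minus KO difference in centred log2(ratio + 1) for every row (points) of the 63 genes, ordered by the gene's mean difference (bars). Gene means run from -0.29 to 0.49, and all 14 points of the gene with the highest mean and 13 of the 14 of the gene with the lowest lie on one side of 0.

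The genes with the most even direction toward WT were followed with the mean over all rows of a gene, tested in limma over the gene means of all 7477 genes. No gene passed an adjusted p of 0.05 (0% called in the background), and the smallest adjusted p of the 63 was 0.390. At an unadjusted p under 0.05, 5 genes (7.94%) were higher in WT against a background of 5.98%, and 0 were higher in KO against 2.9%. The 3 WT libraries did not overlap the 3 KO libraries in 10 genes higher in WT (15.9%, background 8.6%) and in 6 genes higher in KO (9.52%, background 6.51%).

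ENSMUSG00000020315 (chromosome 11, 30049395 to 30218175, minus strand, 17492 bp of exons) had 11 of 11 rows higher in WT. Averaged over its rows, the ratio in the KO samples came to 1.46, 1.38 and 1.95, while the WT samples gave 2.34, 2.48 and 2.37. All WT values lay above all KO values, with means of 2.40 ± 0.0763 and 1.60 ± 0.310 (SD, n = 3 each). The log2 difference was 0.40 (SE 0.09, limma adjusted p = 0.390). Its 11 rows differed by nearly the same amount, with an SD of the row differences of 0.065, the smallest of the 63 genes. In the input it was slightly higher in KO, by 0.14 on the log2 scale (edgeR adjusted p = 0.762).

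ENSMUSG00000010277 (chromosome 11, 78152578 to 78181449, plus strand, 8798 bp of exons) had 14 of 14 rows higher in WT and the highest mean difference. Its mean ratio was 3.91, 2.12 and 2.60 in KO and 5.13, 3.85 and 3.99 in WT libraries. On the ratio itself the highest KO value lay between the WT values, while the centred log2 means, on which the test ran, did not overlap. The log2 difference was 0.49 (SE 0.14, limma adjusted p = 0.423). In its highest row alone the difference was 0.11. The rows were less even than in the gene above, with an SD of the row differences of 0.30.

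Another 3 genes stood at an unadjusted p under 0.05. The gene on chromosome 6 from 119900930 to 120015633 (12 of 12 rows higher in WT) had mean ratios of 1.67, 1.78 and 1.90 in KO and 2.78, 2.40 and 2.57 in WT libraries, with a log2 difference of 0.33 (SE 0.08, limma adjusted p = 0.393). The gene on chromosome 6 from 113054326 to 113130396 (10 of 10 rows) had 1.56, 1.44 and 1.65 in KO and 2.15, 1.98 and 2.04 in WT, a log2 difference of 0.26 (SE 0.07, limma adjusted p = 0.423). Neither gene's libraries overlapped between genotypes. The gene on chromosome 11 from 69234099 to 69260232 (13 of 14 rows) had 1.89, 2.74 and 1.93 in KO and 4.22, 2.72 and 2.50 in WT, a log2 difference of 0.26 (SE 0.10, limma adjusted p = 0.529). In its highest row alone the difference was 1.24. Its ratios overlapped, since KO replicate 2 exceeded WT replicates 2 and 3, while its centred log2 means did not overlap.

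**Figure D4:**
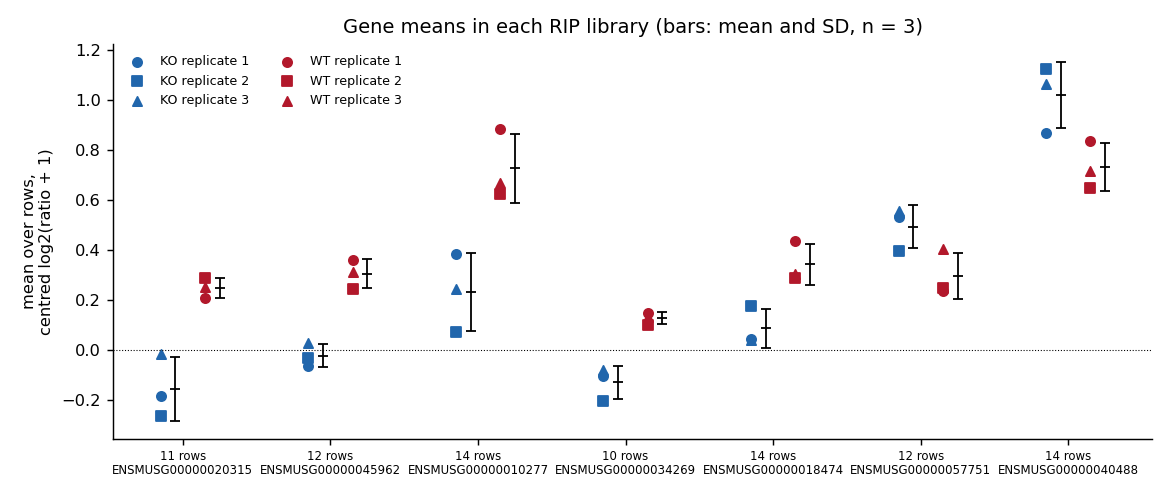
Mean over rows of centred log2(ratio + 1) in each of the 6 RIP libraries for 7 genes, with the mean and SD of 3 libraries per genotype as bars. The first 5 genes, higher in WT by 0.26 to 0.49, and the last pair, higher in KO by 0.20 and 0.29, were picked for these differences, and none passed an adjusted p of 0.05.

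Of the 28 genes with a negative mean difference, 2 are given in full, 1 because no row was higher in WT and 1 because its mean difference was the lowest. ENSMUSG00000057751 (chromosome 4, 154255187 to 154360170, plus strand) had 0 of 12 rows higher in WT. Its mean ratio was 3.00, 2.72 and 3.14 in KO and 2.34, 2.31 and 2.70 in WT libraries, so that the lowest KO value lay just above the highest WT value, and the centred log2 means overlapped. The log2 difference was -0.20 (SE 0.11, limma adjusted p = 0.649). ENSMUSG00000040488, with 1 of 14 rows higher in WT, had mean ratios of 4.53, 13.6 and 7.40 in KO and 5.72, 3.72 and 4.57 in WT libraries and a log2 difference of -0.29 (SE 0.17, limma adjusted p = 0.675). Its mean ratios overlapped and its centred log2 means did not. The uneven highest row given above, with 139 in KO replicate 2, enters these mean ratios.

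Among the genes with the most rows, direction differed from gene to gene. ENSMUSG00000028763 had 5 of 32 rows higher in WT and a mean difference of -0.15, and ENSMUSG00000026837 (chromosome 2, 27776437 to 27929526, plus strand) had 2 of 16 and -0.17. ENSMUSG00000023830 had 16 of 21 rows higher in WT and a mean difference of 0.18. The centred log2 means of ENSMUSG00000028763, ENSMUSG00000026837 and ENSMUSG00000023830 did not overlap between genotypes. ENSMUSG00000025261 had 19 of 28 rows higher in WT and ENSMUSG00000040249 had 11 of 28. ENSMUSG00000026193, with a high median row of 4.75 (range 1.43 to 13.7), had 15 of 27. In none of these did the gene mean reach an unadjusted p of 0.05.

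How far the rows of a gene moved together was expressed as the share of the variance among rows that lay between genes, over the 795 rows of the 60 genes with rows of their own. For the WT minus KO difference this share was 28.5%. For the deviation of a single library from the mean of its genotype it lay between -1.18% and 7.94% (an estimate that can fall under 0). Without each library in turn the share for the WT minus KO difference lay between 20.7% and 30.6%, and without the 5 genes of largest mean difference it was 17.1%. For the 2745 genes with 2 to 9 rows, on 7692 rows of their own, it was 18.1%, and there it dropped to 9.34% without KO replicate 1 and 8.24% without WT replicate 1. Rows of a gene are not independent samples, and no test was made.

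The first principal component of the gene means over the 6 libraries held 47.6% of the variance in these 60 genes. Its weights were -0.40, -0.48 and -0.34 in KO replicates and 0.38, 0.43 and 0.41 in WT replicates, so it set the genotypes apart. In the genes with 2 to 9 rows the first component held 47.8%, with weights of 0.40, -0.52 and -0.21 in KO and -0.46, 0.41 and 0.38 in WT libraries. There, KO replicate 1 had the sign of WT replicates 2 and 3, and WT replicate 1 that of KO replicates 2 and 3. Among the 205 genes with under 10 rows but an input of at least 310 CPM, the weights of KO replicate 1 and WT replicate 1 were likewise 0.34 and -0.29.

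**Figure D5:**
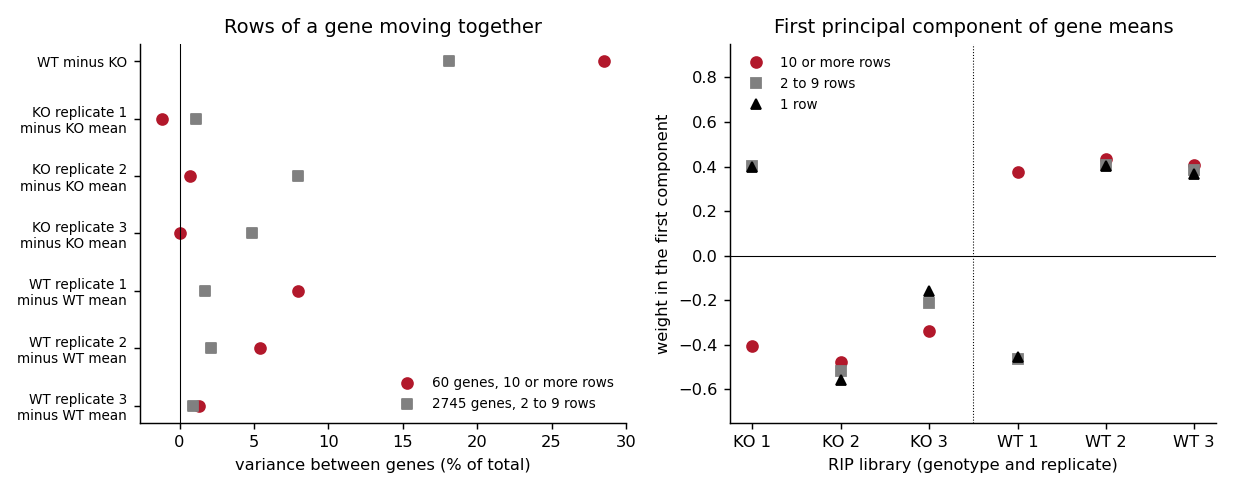
Left, the share of variance between genes (% of total) for the WT minus KO difference and for each library's deviation from its genotype mean, in genes with 10 or more rows and genes with 2 to 9 rows; right, the weight of each RIP library in the first principal component of gene means. In genes with 10 or more rows the WT minus KO share is 28.5%, against 7.94% for the highest deviation of a library, and the 3 KO weights are negative and the 3 WT weights positive.

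In the input, 61 of the 63 genes were tested and 0 passed an adjusted p of 0.05 in edgeR (smallest adjusted p = 0.762), against 0.0422% of all 23698 genes tested. At an unadjusted p under 0.05, 5 genes (8.20%, background 2.9%) were higher in KO and 0 higher in WT (background 3%). These 5 genes differed by 0.12 to 0.15 on the log2 scale. The estimate was positive, KO over WT, in 46 of the 61 genes (75.4%), against 49.5% of all genes tested, and the median was 0.05 against -0.002. In the 69 tested genes with 8 or 9 rows the median was 0.03, and in the 25 genes with 9 rows it was -0.02. The count of genes at an unadjusted p under 0.05 and higher in KO moved with single libraries, from 0 genes without KO replicate 3 or WT replicate 2 to 8 without KO replicate 2 and 13 without WT replicate 1. In whole ovaries, fewer cells of a type and less RNA per cell cannot be told apart.

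Over the 60 genes with rows of their own, the KO over WT difference of the input had a Spearman correlation of 0.298 with the WT minus KO difference of the RIP ratios. For the 5 genes highest in WT in the RIP, the input differed by -0.003 to 0.14 on the log2 scale, and for the 2 genes given as higher in KO by -0.06 and 0.02. The part of the input in the RIP differences was not tested.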

How the data were processed

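Libraries came from whole fetal ovaries, 3 per genotype for input and for RIP. The fold enrichment ratios were deposited by the authors as a table with 1 value per library and no positions; how rows were chosen and what the ratios are relative to is not stated there. Input counts were deposited by the authors as raw reads per gene over exons, made with featureCounts 1.6.3 on Ensembl release 104 annotation, per the file headers. The submitters' processing notes name GRCm38, MACS2 2.1.0, BWA 0.7.12, FastQC and DESeq2 1.26.0 without roles. Release 104 belongs to a later build, so coordinates are those of the count files and were not converted.

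The 63 genes and the lists were chosen with earlier results of these data known. Ratios were tested with limma 3.58.1 (trend) on log2(ratio + 1), columns centred on their medians, for rows and gene means with a mean ratio of at least 1. Input counts were tested with edgeR 4.0.16 (quasi-likelihood, TMM, filterByExpr) in R 4.3.3, with Benjamini-Hochberg adjustment and a threshold of 0.05; the biological coefficient of variation was 12.1%. DESeq2 1.42.0 was an alternative. The p-values measure the spread between these samples. Exact permutation of 3 against 3 cannot go below p = 0.1 and was not used.

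Genes named are the 10 with most rows, the extremes of within-gene spread, of WT minus KO difference, of input and of length, and Fmr1, as far as the text needed them. None of the 7525 identifiers matched the RefSeq table, so the gene lists and cell type markers drawn up by symbol were not applied. On simulated data, limma found 34 of 50 gene means changed 2-fold in value + 1, limma on rows 23 of 50, and edgeR on input 38 of 50. At 3-fold, limma found 31 of 50 gene means. Unchanged features called numbered 4, 5 and 8, in the same order. The noise was drawn separately for each row, so variation shared by the rows of a gene was left out of the simulated gene means. Deviations of same-numbered samples correlated between -0.601 and -0.0589, so replicate numbers were not used as pairs.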

Additional observations from a re-analysis of the deposited data

How the results depend on the processing

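With no filter on low values, limma called 1 row and 1 gene mean of the whole table instead of 0; the other alternatives (pseudocount, scaling, replicate block, each library left out) left both at 0. The number of input genes called, 10 by edgeR, was 113 with no filter on low counts, 20 with a replicate block, 37 in DESeq2 and 5 to 37 with each library left out (37 without KO replicate 1, 28 without WT replicate 2, 5 without KO replicate 2); 0 of the 61 genes with many rows were called under any of these. The median spread within a gene, 0.442, was 0.384 with a minimum of 8 rows and 0.574 with a pseudocount of 0.1. The 63 genes became 133 with a minimum of 8 rows and 11 with 15. The 5 genes with all rows in 1 direction became 9 and 0 under those minimums, 3 without KO replicate 1 and 2 without WT replicate 1. The 7 genes followed by library kept their direction in every alternative run, without passing an adjusted p of 0.05. Because they were picked for differences in these same libraries, a kept direction is not separate support. The limma adjusted p of ENSMUSG00000020315 lay between 0.303 and 0.842 and that of ENSMUSG00000040488 between 0.598 and 0.992. Their sizes moved more: the log2 difference of ENSMUSG00000010277, 0.49, was 0.67 and 0.15 with pseudocounts of 0.1 and 10, which change the scale itself, and 0.11 for its highest row alone; that of ENSMUSG00000018474, 0.26, lay between 0.08 (pseudocount of 10) and 1.24 (highest row), and that of ENSMUSG00000040488, -0.29, between -0.13 and -1.53 under the same settings. The cause of the other shifts was not tested. The RIP ratios carry no depth, so their counting error is unknown.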
